A study of Mus musculus with 50 samples.

Results

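Potassium channel genes were taken as the protein-coding genes of the GENCODE vM21 annotation whose symbol starts with Kcn. Of 94 such genes, 81 reached 1 CPM (a count scaled to library size, worth 35.5 to 43.9 counts in these libraries) in at least 5 of the 50 libraries and are described here. These 81 belong to the 16330 protein-coding genes tested across the series. The rule used neither the genotype nor the age of a library, but it kept genes that passed at some ages alone. In 10 of the 81, no library of at least 1 age reached 1 CPM, so a difference across age was built into their choice. These 10 were Kcne2, Kcng3, Kcng4, Kcnh8, Kcnj5, Kcnj16, Kcnk13, Kcnn4, Kcnrg and Kcns3.

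RNA was sequenced from mouse frontal cortex at 5 ages, labelled E14, E18, P7, P35 and P70 (embryonic and postnatal days), in wild-type (WT) animals and in heterozygotes (Het, Setd1a+/-) carrying 1 loss-of-function tm1d allele of Setd1a, a histone H3 lysine 4 methyltransferase gene. Each age and genotype had 5 libraries, and the fit of genotype asked whether losing 1 copy of Setd1a altered these genes with age held constant. The labels give the strain as C57BL/6NTac, while the study's methods give a mixed C57BL/6NTac and C57BL/6J background, male subjects and embryos taken at E14.5 and E18.5. The allele was inherited by the whole animal, Het males were bred to wild-type females, and embryonic samples were described as frontal brain regions. Libraries were made from poly-A RNA and sequenced in a single batch.

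Totals ran from 35507165 to 43907318 counts per library. The cortical markers Emx1, Tbr1 and Bcl11b summed to between 140.2 and 1073 CPM, the lowest being WT replicate 2 at P7 against 283 to 322 CPM in the other WT libraries of that age. That library also held 598 CPM of Ttr, a choroid plexus transcript, against at most 0.221 CPM in the other WT libraries at P7. Its oligodendrocyte markers Mbp, Mog, Mag and Cnp summed to 1000.3 CPM against 170.4 to 201.5 CPM, its progenitor markers to 328 CPM against 101.3 to 151.7 CPM and its excitatory neuron markers to 953 CPM against 1529 to 1589 CPM. The sums do not give the direction of each member. Over the WT libraries at P7, the progenitor marker Sox2 varied little (46.8 ± 3.81 CPM, mean ± SD) and Pax6 widely (33.2 ± 37.8 CPM). The excitatory marker Slc17a6 was at 60.6 ± 40.3 CPM in WT and 43.8 ± 1.65 CPM in Het at P7. Het replicate 2 at E14 stood apart through vascular, microglial, astrocyte and interneuron markers. It held 405 CPM over the pericyte genes Pdgfrb, Rgs5, Vtn, Anpep and Cspg4 against 90.2 to 158.2 CPM in the other E14 Het libraries. The endothelial genes Cldn5, Pecam1, Cdh5 and Flt1 summed to 487 CPM there against 91.8 to 168.8 CPM. Its microglial genes Cx3cr1, P2ry12, Csf1r and Tmem119 summed to 67.3 CPM against 34.1 to 43.8 CPM. It also held 388.9 CPM of the astrocyte genes Aqp4, Aldh1l1, Gfap, Gja1, Slc1a3 and Slc1a2 against 275.9 to 305.2 CPM. Its interneuron genes Gad1, Gad2, Lhx6, Sst and Vip summed to 239.7 CPM against 359.6 to 424.2 CPM. The methods name males, yet Xist, the transcript of the inactive X chromosome, reached 60159 counts in WT replicate 5 at E14 and 55644 counts in WT replicate 2 at E18, while the remaining libraries each held 1000 or fewer. Median counts of Setd1a over the whole gene were 129 CPM in WT and 136 CPM in Het at E14, 94.6 and 103.97 CPM at E18, 71.3 and 81.9 CPM at P7, 84.6 and 89.4 CPM at P35 and, in the other direction, 84.8 and 81.9 CPM at P70. The genotypes overlapped at each age but P7, and with age held constant the counts were higher in Het by a log2 fold change of 0.10 (edgeR quasi-likelihood test with Benjamini-Hochberg adjustment, adjusted p = 0.00679). Whole-gene counts do not separate the disrupted allele from the intact one, so they do not check the genotype labels.

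Potassium channels let potassium leave the cell and thereby return the membrane to rest after an action potential, set the resting potential and limit repetitive firing. Voltage-gated (Kv) channels are tetramers of pore subunits that open on depolarization, inward rectifiers (Kir) and tandem pore domain channels (K2P) act near rest, and calcium-activated channels couple firing to calcium entry. In the maturing cortex, neurons gain faster and more regular firing as their set of channels changes, and astrocytes use inward rectifiers to clear extracellular potassium. In bulk tissue, fewer cells of a type and less RNA per cell cannot be told apart.

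From E14 to P70 in WT, 63 of the 81 rose and 11 fell, whereas 42.8% of all tested genes rose and 42.9% fell (edgeR quasi-likelihood test, adjusted p under 0.05). With a change of at least 2-fold required, 54 rose and 7 fell, against 26.4% and 20.3% of all genes. Of the 71 genes that reached 1 CPM in a library of every age, 58 rose and 7 fell, and 49 and 3 did so by at least 2-fold. A minimum of 10 CPM in 5 libraries left 61 of the 81 tested, of which 4 fell (46.4% of all genes) and 2 did so by at least 2-fold (19.5% of all genes). The median log2 fold change of the 81 was 2.52, while that of all tested genes was near 0 (-0.00). Summed over the 81 genes and divided by gene length (RPKM, CPM per kilobase of exon), the WT level went from 217 ± 26.7 RPKM at E14 and 296 ± 7.82 RPKM at E18 to 595 ± 44.6 RPKM by P7 (SD, n = 5 per group). It stood at 1112 ± 28.01 RPKM in P35 animals and 1127 ± 52.7 RPKM in P70 animals. Cell type markers moved over the same span. The excitatory neuron markers Slc17a7, Slc17a6, Neurod6 and Camk2a went from a sum of 423 to 573 CPM in WT at E14 to 4534 to 5501 CPM at P70, where Slc17a7 and Camk2a rose and the other pair fell. The oligodendrocyte markers Mbp, Mog, Mag and Cnp (4 of 4 rose) went from 77.5 to 89.7 CPM to 1957 to 2387 CPM, and the progenitor markers Pax6, Eomes, Sox2, Mki67 and Top2a (5 of 5 fell) from 936 to 1340 CPM to 47.8 to 69.8 CPM. The striatal markers Drd1, Drd2, Adora2a and Ppp1r1b (4 of 4 rose) went from 47.04 to 72.8 CPM to 192.9 to 683 CPM, a wide range between libraries of 1 age. The part of these cells in the result was not tested.

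The rise was spread over the first 3 intervals and ended by P35. Between E14 and E18, 54 of the 81 rose and 11 fell (31.8% and 34.1% of all genes). Between E18 and P7, 58 rose and 7 fell (33.9% and 33.4% of all genes). Between P7 and P35, 48 rose and 12 fell (32.6% and 34.3% of all genes). Of the 71 genes that reached 1 CPM in a library of every age, 49 rose and 9 fell between E14 and E18. The counts in these 71 were 53 and 5 between E18 and P7, and 44 and 9 between P7 and P35. Between P35 and P70, 0 of the 81 rose and 0 fell in the edgeR test, against 0.533% and 0.527% of all genes. In that last interval, 3 of the 81 (3.70%) had an unadjusted p under 0.05 in edgeR, beside 11.3% of all genes, and limma-voom and DESeq2 also called 0. Without WT replicate 5 at P70, 1 gene, the acid- and alkali-sensitive leak channel gene Kcnk5, fell (log2 fold change -0.97, adjusted p = 0.0465), where 1.69% of all genes were called.

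Of the 63 genes that rose from E14 to P70, 18 took their largest step before E18, 27 between E18 and P7, and 18 between P7 and P35. As shares, these were 28.6%, 42.9% and 28.6%, beside 29.8%, 33.2% and 37.02% of the 6986 tested genes that rose. A rise at each of the 3 intervals was seen in 29 of the 81 genes, or 35.8%, beside 9.504% of all tested genes. The 29 include Kcng4, Kcnj16 and Kcnk13, which reached 1 CPM in no E14 library, so a rise was built into their choice.

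**Figure D1:**
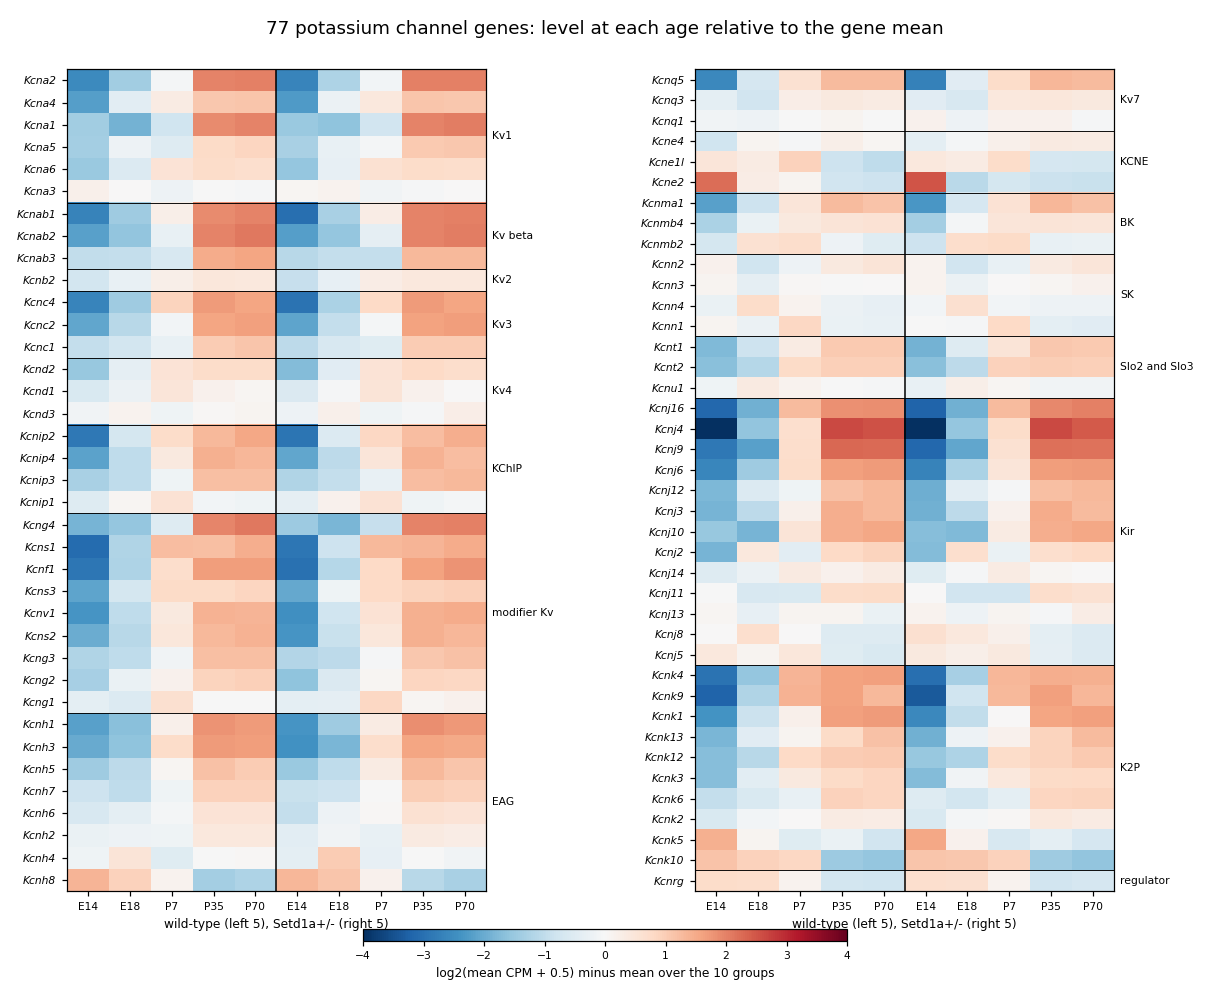
Level of 77 of the 81 genes (rows, grouped by subfamily and ordered by their change) at 5 ages in wild-type and Setd1a+/- cortex, as log2(mean CPM + 0.5) minus the gene's mean over the 10 groups (n = 5 libraries per group). Most rows pass from blue at E14 to red at P35 and P70 in both genotypes, whereas Kcnh8, Kcnk5, Kcnk10, Kcne2 and Kcnrg run the other way.

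The Kv1 genes encode axonal channels that hold down excitability near the node and terminal. Of 6 Kv1 genes, 5 rose from E14 to P70 and 1 fell. Kcna2, encoding the Kv1.2 pore subunit, lay between 10.8 and 16.02 CPM in the 5 WT libraries at E14, between 70.1 and 87.2 at P7 and between 281 and 389 at P70. The groups of successive ages did not overlap up to P35, and the log2 fold change from E14 to P70 was 4.601 (SE 0.14, adjusted p = 6.07e-31). Kcna1, its Kv1.1 partner, first fell from E14 to E18 (log2 fold change -0.53) and then rose by 1.16 to P7 and by 2.70 to P35 on the log2 scale. At P35, the WT libraries held 106, 95.3, 101.97, 88.3 and 96.9 CPM of Kcna1, against 12.6, 23.0, 12.4, 14.96 and 12.3 CPM at P7, and the 23.0 came from WT replicate 2, the library with raised choroid plexus, oligodendrocyte and progenitor transcripts. Kcna3, encoding Kv1.3, was the exception among the Kv1 genes. It made up 51.7% of the length-scaled Kv1 level at E14 (9.49 ± 1.09 RPKM) and 8.94% at P70 (7.83 ± 1.68 RPKM), and it fell by 0.28 on the log2 scale in WT. That call rested on single libraries: without WT replicate 4 at P70, at 9.74 CPM against 14.01 to 17.5 CPM in the others, the log2 fold change was -0.16 (adjusted p = 0.148), and without WT replicate 3 at E14 it was -0.21 (adjusted p = 0.101). In Het the log2 fold change was -0.03, and this difference between genotypes was not tested on its own. Kcna6 (Kv1.6) rose by 2.16 on the log2 scale, although exons of another gene overlap 39.6% of its exonic length.

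The cytoplasmic Kv beta subunits, which bind Kv1 channels and alter their inactivation and transport, rose with them, and all 3 genes of the set passed the test. Kcnab2 took its largest step between P7 and P35, from 85.1 to 92.2 CPM to 405 to 479 CPM over the 5 WT libraries (log2 fold change 2.31), and the ages stood far apart. At P70 it was the second highest of the 81 genes per length, at 68.4 ± 5.64 RPKM. Kcnab1 rose at each of the 3 intervals, by 1.37, 1.70 and 1.65 on the log2 scale. Kcnab3 was level between E14 and E18, rose by 0.31 to P7 (0.23, adjusted p = 0.0539, without WT replicate 1 at P7), and then by 2.16 to P35. Its share of the Kv beta level per length went from 49.9% at E14 to 23.0% at P70 as Kcnab2 went from 45.6% to 67.4%.

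The genes of Kv2, the delayed rectifier of the soma, and of Kv3, best known from fast-firing cells, all rose from E14 to P70. Kcnb2, encoding Kv2.2, had a log2 fold change of 1.21 (SE 0.11) and reached 2.07 ± 0.162 RPKM at P70. Kcnc1 and Kcnc2, which allow narrow spikes in fast-spiking interneurons, rose by 2.05 and 3.81 on the log2 scale, with their largest steps between P7 and P35. Over the same span the fast-spiking interneuron markers Pvalb, Tac1 and Syt2 (3 of 3 tested) rose from a sum of 14.2 to 18.5 CPM in WT at E14 to 123 to 168 CPM at P70, and their part in the result was not tested. Kcnc4 rose most among the Kv3 genes, by 4.39 on the log2 scale. At P7 the fast-spiking markers summed to 96.3 CPM in WT replicate 2 against 10.7 to 23.2 CPM in the other 4 WT libraries.

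Kv4 channels carry the dendritic A-type current, and the KChIP proteins are their calcium-binding subunits. Kcnd2 (Kv4.2) rose by 2.30 on the log2 scale, from 3.76 ± 1.28 to 18.5 ± 1.81 RPKM, while Kcnd3 (Kv4.3) rose by 0.25 (0.18, adjusted p = 0.0645, without WT replicate 5 at E14), from 6.98 ± 0.858 to 8.30 ± 0.564 RPKM. The order of the pair thus changed, with Kcnd3 at 57.5% of the Kv4 level per length at E14 and Kcnd2 at 62.9% at P70. Among the 4 KChIP genes, Kcnip2 rose by 4.48, Kcnip4 by 3.64 and Kcnip3 by 2.52 on the log2 scale. Kcnip1 instead peaked at P7: it rose by 0.60 and 0.51 and then fell by 0.69 on the log2 scale between P7 and P35.

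The electrically silent Kv5, Kv6, Kv8 and Kv9 subunits form no channel alone and modify Kv2 channels. All 9 such genes that passed the 1 CPM rule rose from E14 to P70, with a median log2 fold change of 3.78. Kcng3, Kcng4 and Kcns3 reached 1 CPM in no E14 library, so their rise was built into the choice, and the other 6 had a median of 3.65. Kcnf1 was the highest of them at P70, at 43.2 ± 4.51 RPKM. Kcns1 rose by 5.31 on the log2 scale, reached by P7. Kcng4 had the largest fitted log2 fold change of the 81 genes, 8.02 (SE 0.63), but it rests on 5 counts summed over the 5 WT libraries at E14 against 1349 at P70. Kcng1 peaked at P7, with a rise by 1.202 from E18 and a fall by 0.68 to P35 on the log2 scale.

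The ether-a-go-go group (EAG, erg and ELK channels) changed its leading gene by mean level. Kcnh4, an ELK channel gene, was the highest of the 8 per length at E14 (7.53 ± 2.34 RPKM, 31.4% of the group), and Kcnh3, another ELK gene, was the highest at P70 (38.4 ± 2.39 RPKM, 42.3%). The lead at E14 was narrow: Kcnh2 stood at 6.25 ± 1.13 RPKM (26.7%), inside the 4.09 to 10.6 RPKM range of Kcnh4. Kcnh3 rose by 3.74 and Kcnh1, encoding EAG1, by 3.98 on the log2 scale. Kcnh4 rose to a peak at E18, fell by 1.01 to P7 and rose again by 0.49 to P35, and its net change over E14 to P70 was not called (log2 fold change 0.23, adjusted p = 0.157). The value moved with single libraries, to 0.39 (adjusted p = 0.0182) without WT replicate 1 at E14 and to 0.07 (adjusted p = 0.631) without WT replicate 5 at E14. Kcnh8, the remaining ELK gene, fell at each of the 3 intervals, although its first fall was not called without WT replicate 1 at E14 (log2 fold change -0.38, adjusted p = 0.0615).

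Neuronal Kv7 channels carry the M-current, the slow brake on firing that neuromodulators lift. Kcnq3 stood at 9.30 ± 2.05 RPKM at E14 and 15.1 ± 1.496 RPKM at P70. It rose by 0.70 on the log2 scale after a fall by 0.39 between E14 and E18. Kcnq5 rose by 3.92, and its share of the Kv7 level per length went from 3.54% to 24.3%. Kcnq1, best known from the heart and epithelia, was not called at any of the 4 intervals or over the whole span.

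**Figure D2:**
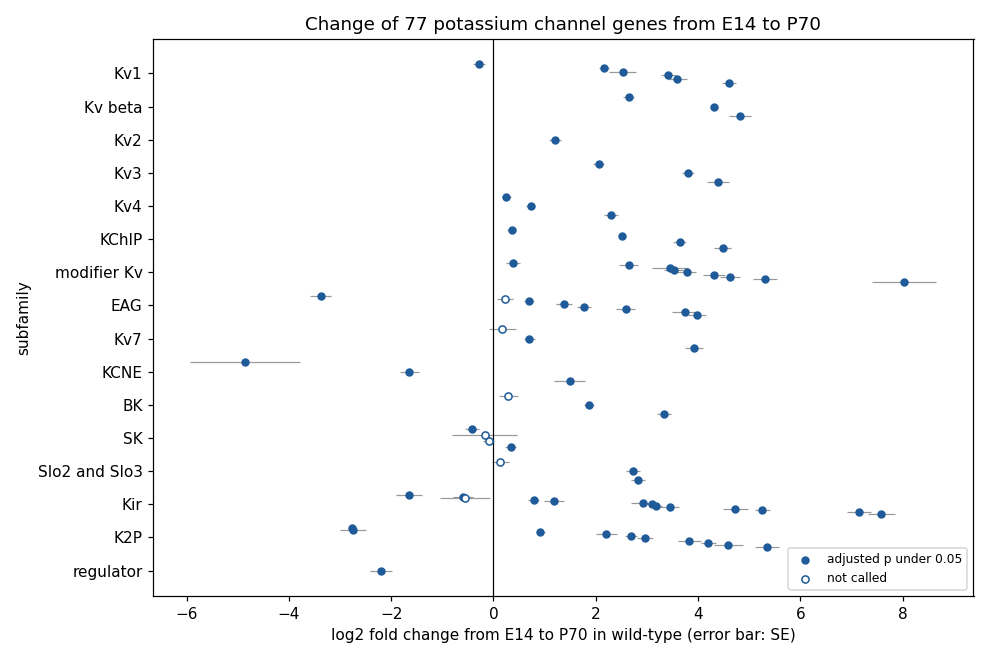
Log2 fold change from E14 to P70 in wild-type (x axis, error bar SE) of 77 of the 81 genes (points) by subfamily (rows), with filled points called at an adjusted p under 0.05. Points to the right of 0 prevail in most rows, up to 8.02 for Kcng4, and the Kv1, EAG, KCNE, SK, Kir, K2P and regulator rows also hold called genes to the left.

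Among the calcium- and sodium-activated channels, Kcnma1, the pore of the large-conductance BK channel, rose by 3.33 on the log2 scale, and Kcnmb4, its neuronal beta subunit, by 1.87, with 2 other genes together overlapping 31.5% of the exons of Kcnmb4. Kcnt1 and Kcnt2, the sodium-activated pair, rose by 2.83 and 2.73. The small-conductance SK genes, which shape the afterhyperpolarization, moved little over the span: Kcnn2 rose by 0.34, Kcnn1 fell by 0.42 and Kcnn3 was not called. Within it they were not flat. All 3 fell from E14 to E18 and rose from E18 to P7, and Kcnn1 then fell by 1.11 to P35 on the log2 scale. The SK share of the length-scaled level of the 81 genes went from 6.44% ± 0.95 at E14 to 1.19% ± 0.068 at P70 (SD, n = 5).

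The inward rectifiers held the largest share at P70, 19.7% ± 1.3 of the length-scaled level, against 10.2% ± 1.1 at E14. Of 13 Kir genes, 10 rose and 2 fell. Kcnj4, encoding the strong rectifier Kir2.3, held 1.03, 2.17, 1.16, 1.35 and 0.520 CPM in WT at E14, and 184, 167, 137, 198 and 190 CPM at P70. The groups lay far apart, and the log2 fold change was 7.15 (SE 0.24). Per length it became the highest of the 81 genes, at 81.4 ± 11.2 RPKM at P70 after 0.579 ± 0.279 at E14, and its range at P70 overlapped that of Kcnab2, the next in order. The G protein-gated subunits, which answer inhibitory transmitters, rose too: Kcnj9 by 5.25, Kcnj6 by 4.73 and Kcnj3 by 3.18 on the log2 scale. Kcnj9 (GIRK3) held 5.90, 6.56, 4.86, 3.82 and 4.14 CPM at E14 and 192.8, 179, 226, 175 and 189 CPM at P70. Kcnj5, the fourth subunit of that kind, best known from the heart, fell by 1.65 on the log2 scale from 0.337 ± 0.0373 RPKM.

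Kcnj10 and Kcnj16 encode Kir4.1 and Kir5.1, the channel of astrocytes. Kcnj10 held 16.2, 18.8, 20.6, 21.1 and 20.4 CPM in WT at E14, 11, 15.05, 14.04, 16.1 and 20.6 at E18 and 83.1, 82.0, 77.8, 75.9 and 89.7 at P7. The E14 and E18 libraries overlapped, although the fall between them was called, and the P7 libraries lay above both. Kcnj16 was nearly absent at E14, at 0.0236 to 0.176 CPM, and reached 11.1 to 13.7 CPM at P7, a log2 fold change of 3.74 from E18. The astrocyte markers Aqp4, Aldh1l1, Gfap, Gja1, Slc1a3 and Slc1a2 (6 of 6 tested) also rose from E14 to P70, from a sum of 242 to 294 CPM in WT at E14 to 1405 to 1922 at P7 and 3113 to 3708 at P70, and their part in the result was not tested.

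Kcnj8, the vascular ATP-sensitive channel gene, rose from E14 to E18 and then fell, by 0.60 over the whole span in WT on the log2 scale. From E14 to E18 in WT, the endothelial markers went from a sum of 85.2 to 126.2 CPM to 131.15 to 310 CPM and the pericyte markers from 93.97 to 120.4 CPM to 142.7 to 307 CPM, and WT replicate 3 at E18 was the highest of these WT libraries for both and for Kcnj8 (13.01 CPM). Over all libraries, Kcnj8 was highest in Het replicate 2 at E14: the 5 Het libraries held 5.69, 20, 7.91, 8.34 and 6.69 CPM, while the 5 WT libraries lay between 4.87 and 7.25 CPM. Pdgfrb, a pericyte marker, was at 99.9 CPM in that library and between 21.4 and 38.7 CPM in the other Het libraries at E14, while endothelial and microglial markers were also highest there. Without that library, the E14 genotype log2 fold change of Kcnj8 went from 0.66 to 0.21, and it was not called either way. The part of these cells in the result was not tested. Kcnj11, the neuronal ATP-sensitive pore, fell by 0.62 to E18 and rose by 1.37 between P7 and P35 on the log2 scale. Kcnj13, a channel of epithelia such as the choroid plexus, was not called at any interval, and another gene overlaps 49.1% of its exons.

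The K2P genes set the background leak. Of 10, 8 rose and 2 fell. Kcnk1 (TWIK1) rose by 4.20 on the log2 scale and was the highest of them at P70, at 48.6 ± 4.87 RPKM, whereas Kcnk2 (TREK1), the highest at E14 at 8.07 ± 1.35 RPKM, rose by 0.91, with 12.2% of its exons overlapped. Its mechanosensitive relatives went opposite ways. Kcnk4 (TRAAK) held 0.910, 0.732, 0.378, 0.758 and 0.804 CPM in WT at E14 and 27.4, 26.9, 40.6, 25.7 and 25.5 CPM at P70, with 13.1% of its exons overlapped by another gene. Kcnk10 (TREK2) held 49.3, 52.3, 55.4, 53.9 and 43.1 CPM at E14, 39.6, 36.8, 44.6, 38.6 and 42.2 at P7, and 8.46, 6.63, 7.48, 8.90 and 8.08 at P35. Most of the fall of Kcnk10 thus came between P7 and P35, where the groups were far apart (log2 fold change -2.35). Kcnk9 (TASK3) rose by 4.59 on the log2 scale, by P7. Kcnk5 (TASK2) fell early, by 1.54 from E14 to E18, from 4.14, 3.04, 5.46, 5.60 and 8.08 CPM to 2.40, 1.77, 1.80, 1.90 and 1.15 CPM.

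The 11 genes that fell were led by Kcne2, with a log2 fold change of -4.86 (SE 1.07). Kcne2, Kcnh8, Kcnj5 and Kcnrg reached 1 CPM in no P35 or P70 library, so their falls were built into the choice. Kcne2 encodes a single-pass subunit abundant in the choroid plexus, and its level varied widely between libraries of 1 age. The 5 WT libraries at E14 held 0.264, 0.352, 8.94, 5.63 and 10.7 CPM and the 5 Het libraries 1.09, 0.0758, 6.23, 11.5 and 13.1 CPM. The choroid plexus markers Ttr, Folr1, Kl, Clic6 and Otx2 (5 of 5 tested) summed to 12.5, 23.6, 398, 273 and 428 CPM in the same WT libraries and to 80.0, 10.8, 189, 464 and 485 CPM in the same Het libraries. At P7 the high library was WT replicate 2, with 3.34 CPM of Kcne2 against at most 0.193 CPM in the other WT libraries, and a marker sum of 633 CPM against at most 3.45. The part of these cells in the result was not tested, and with RNA integrity as a covariate the fall was not called (log2 fold change -2.84, adjusted p = 0.0565).

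**Figure D3:**
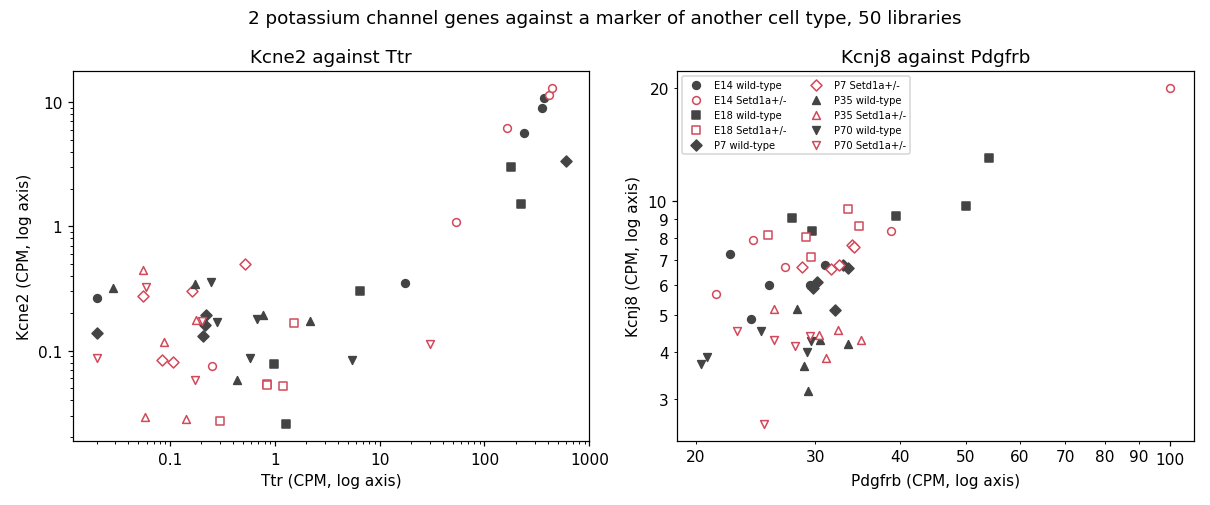
Left, Kcne2 against the choroid plexus transcript Ttr, and right, Kcnj8 against the pericyte transcript Pdgfrb, each point being 1 of the 50 libraries, in CPM on log axes; the 3 libraries with no Ttr count are drawn at 0.02 CPM. Libraries above 100 CPM of Ttr held 1.504 CPM or more of Kcne2, and Het replicate 2 at E14 stands alone at 20 CPM of Kcnj8 and 99.9 CPM of Pdgfrb.

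Kcnh8, the ELK gene that fell, held 7.64, 6.13, 5.41, 5.14 and 5.63 CPM in WT at E14, 1.85, 2.82, 1.96, 2.61 and 2.27 at P7 and 0.467, 0.331, 0.520, 0.692 and 0.375 at P35. None of these groups overlapped, and the log2 fold change to P70 was -3.38 (SE 0.20). Kcnrg, a regulator of Kv assembly, fell by 2.20 and Kcne1l, an X-linked single-pass subunit gene, fell by 1.65 on the log2 scale. The latter first rose by 0.62 between E18 and P7, or by 0.38 (adjusted p = 0.0424) without WT replicate 2 at P7, which held 21.4 CPM against 9.62 to 13.4 CPM in the other WT libraries.

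To set sequence beside these opposite courses, the 250 bases before the RefSeq transcription start (GRCm38.p6) are shown for 2 genes that rose, Kcnj4 and Kcnj9, and for 2 that fell, Kcnk5 and Kcnh8, each with 1 listed start. The bases just after the start of Kcnj9 were not found in a GENCODE vM21 transcript of the gene, while those of the other 3 genes were. Capitals mark CG dinucleotides, the sites of cytosine methylation in mammals, and each sequence reads 5′ to 3′ on the strand of the gene.
Kcnj4 (chr15:79505242-79505491, minus strand): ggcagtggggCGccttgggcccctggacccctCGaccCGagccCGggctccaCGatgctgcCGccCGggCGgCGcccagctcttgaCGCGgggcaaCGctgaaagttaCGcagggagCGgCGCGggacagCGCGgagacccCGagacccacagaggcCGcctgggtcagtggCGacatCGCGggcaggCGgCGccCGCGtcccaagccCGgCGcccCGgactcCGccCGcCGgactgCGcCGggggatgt
Kcnj9 (chr1:172329323-172329572, minus strand): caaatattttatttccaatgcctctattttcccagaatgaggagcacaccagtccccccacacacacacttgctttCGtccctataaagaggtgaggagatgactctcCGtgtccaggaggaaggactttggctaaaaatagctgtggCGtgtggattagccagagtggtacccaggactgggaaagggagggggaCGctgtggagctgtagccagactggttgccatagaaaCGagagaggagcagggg
Kcnk5 (chr14:20181783-20182032, minus strand): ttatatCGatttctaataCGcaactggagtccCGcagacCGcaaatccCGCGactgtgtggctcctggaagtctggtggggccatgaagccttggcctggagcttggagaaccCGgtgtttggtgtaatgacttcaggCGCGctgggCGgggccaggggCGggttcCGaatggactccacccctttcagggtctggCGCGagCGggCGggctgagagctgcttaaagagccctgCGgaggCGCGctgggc
Kcnh8 (chr17:52602459-52602708, plus strand): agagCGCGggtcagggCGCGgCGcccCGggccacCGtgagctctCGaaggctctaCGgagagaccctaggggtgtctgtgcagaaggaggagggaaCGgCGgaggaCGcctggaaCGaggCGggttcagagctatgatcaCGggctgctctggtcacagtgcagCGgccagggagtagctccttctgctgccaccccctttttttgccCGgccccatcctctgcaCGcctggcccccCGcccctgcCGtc
The stretch of Kcnj4 held 35 CG dinucleotides and that of Kcnj9 held 5, although both genes rose more than 5 units on the log2 scale. Kcnk5 and Kcnh8, which fell, held 19 and 20. G and C made up 77.2% of the Kcnj4 bases, 52% for Kcnj9, 62.8% for Kcnk5 and 68.4% for Kcnh8. Over 300-base windows, which add 50 bases after the start, 58 of the 81 genes had an entry. With each gene's richest window, the median was 19 CG in the 43 that rose, 14 in the 10 that fell and 20 in the 12482 tested genes with an entry. The letters TATAAA, read on both strands, occurred in the stretch of Kcnj9, in 6.90% of the 58 genes and in 9.66% of the 12482.

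**Figure D4:**
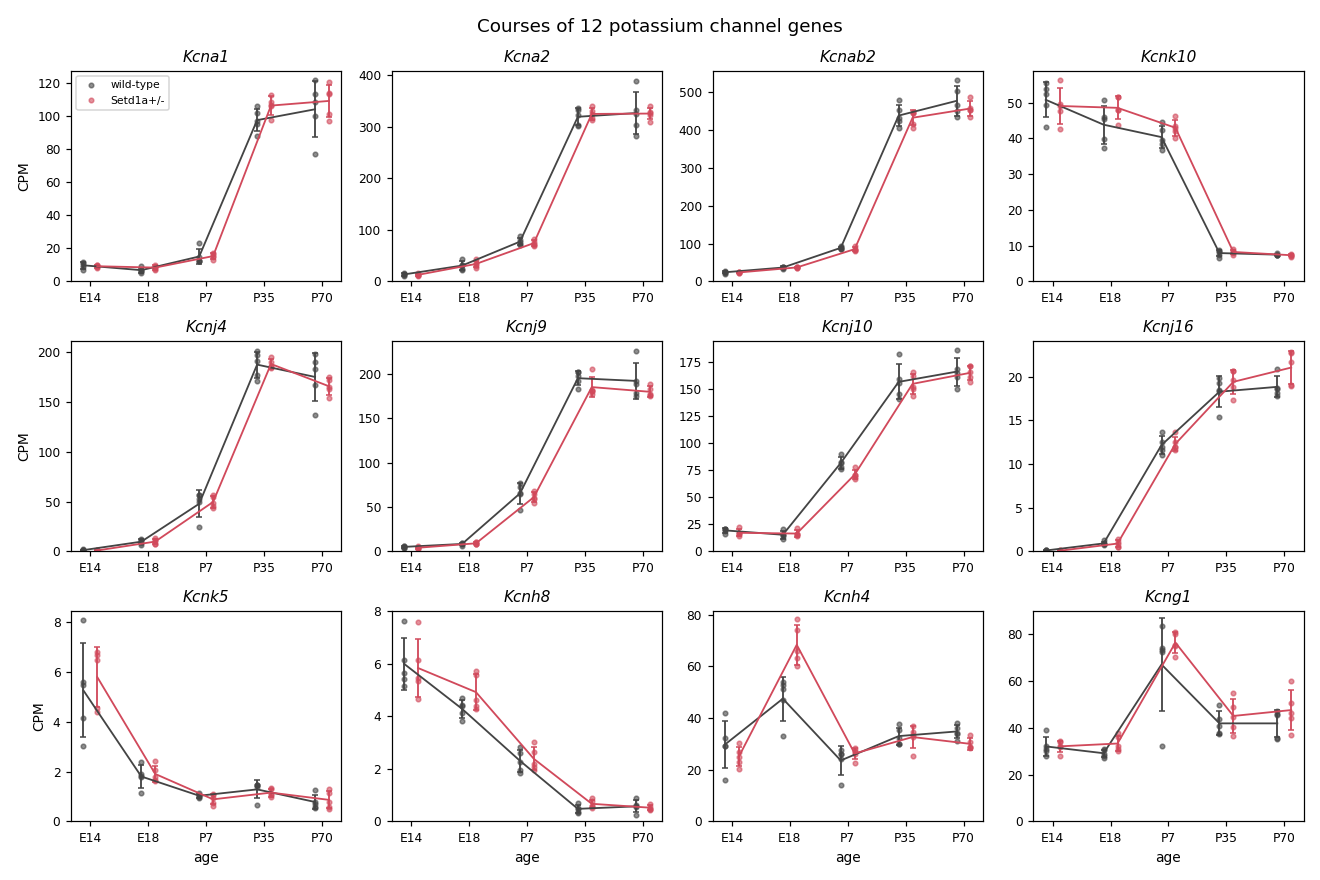
CPM of 12 genes at 5 ages in wild-type (grey) and Setd1a+/- (red) cortex, with each library as a point and the mean and SD of 5 libraries joined by lines. Kcna1, Kcna2, Kcnab2 and Kcnj4 rise mainly by P35, Kcnk5, Kcnk10 and Kcnh8 fall, and Kcnh4 and Kcng1 peak at E18 and P7.

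Setd1a+/- cortex went through the same span with like counts. In Het, 64 of the 81 genes rose from E14 to P70 and 10 fell (42.3% and 43% of all tested genes), with a median log2 fold change of 2.53. Of these, 63 rose and 10 fell in both genotypes, 0 were called in opposite directions, and 6 were called in neither: Kcnh4, Kcnj13, Kcnn3, Kcnn4, Kcnq1 and Kcnu1. Kcna3 was called in WT alone, but not without WT replicate 4 at P70 (log2 fold change -0.16) or WT replicate 3 at E14 (-0.21). Kcnmb2, a BK beta subunit gene, was called in Het alone, but also in WT without WT replicate 1 at E14, where its log2 fold change went from 0.29 to 0.49. The age by genotype interaction, which asks whether the genotype difference varies over the 5 ages, called 0 of the 81 genes and 0% of all tested genes in edgeR. Of the 81, 4 (4.94%) had an unadjusted p under 0.05, beside 6.72% of all genes. Limma-voom called 0 and DESeq2 called 1 (against 0.129% of all genes), Kcng4, whose E14 counts are near 0. The smallest interaction p was that of Kcnh4 (0.00465, adjusted p = 0.445).

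With age held constant, 1 of the 81 genes differed by genotype. Kcnab3, encoding Kv beta 3, fell by 12.5% in Het (log2 fold change -0.19, SE 0.05, adjusted p = 0.00674), where 3.75% of all tested genes were lower. None of the 81 was higher, against 0.68% of all genes; by unadjusted p under 0.05, 2 of the 81 were higher and 5 lower, together 8.64% beside 14.5% of all genes. Limma-voom and DESeq2 also called Kcnab3 and no other of the 81.

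By library, Kcnab3 held 10.95, 11.01, 11.03, 11.7 and 8.98 CPM in WT and 10.3, 10.1, 9.13, 9.02 and 10.7 CPM in Het at E14. At E18, the values were 9.43, 13.05, 11.1, 9.72 and 12.2 CPM in WT and 10.4, 10.5, 9.18, 13.1 and 11.7 CPM in Het. The groups overlapped at both embryonic ages. At P7, WT held 16.6, 13.1, 11.2, 14.1 and 13.9 CPM and Het 9.01, 11.2, 10.4, 12.8 and 12.0 CPM. At P35, WT held 59.4, 65.4, 69.0, 66.3 and 48.9 CPM and Het 51.6, 53.4, 52.3, 57.3 and 57.7 CPM. At P70, WT held 67.6, 59.4, 78.2, 70.6 and 59.4 CPM and Het 49.2, 52.6, 60.2, 56.2 and 52.0 CPM. Het means were lower at each age while single libraries crossed, with log2 fold changes of -0.12, -0.01, -0.31, -0.18 and -0.31 from E14 to P70, none of which passed the test at a single age. The adjusted p of the fit over ages ran from 0.00178 to 0.0198 over the alternatives tried.

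Its relatives did not share the call. The genotype log2 fold changes were -0.03 (SE 0.03) for Kcnab2 and 0.02 (SE 0.08) for Kcnab1, and the difference between the 3 genes was not tested. Kcnab3 lies on chromosome 11 at 69326258 to 69333042 (GRCm38, plus strand). The antisense gene Kcnab3os overlaps 5.13% of its exons and was also lower in Het in a fit of all annotated genes (log2 fold change -0.23, adjusted p = 0.00876), and the counting used no strand and gave reads over both genes to each, so the pair cannot be told apart there. The 2 tested genes before it were lower as well, Trappc1, a vesicle tethering gene that ends 465 bases upstream (log2 fold change -0.17, adjusted p = 0.000211), and Cntrob, a centriole gene (log2 fold change -0.24, adjusted p = 2.92e-06). The 2 tested genes after it, Rnf227 and Chd3, were not called (log2 fold changes -0.06 and -0.02). Farther downstream, Cyb5d1, Tmem88 and Kdm6b were not called (0.01, -0.11 and -0.05) and Naa38, 62445 bases away, was lower (-0.18, adjusted p = 0.000194), while Gucy2e, 89222 bases upstream, was not called (-0.10). The neighbours were looked up after the result for Kcnab3 was seen.

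**Figure D5:**
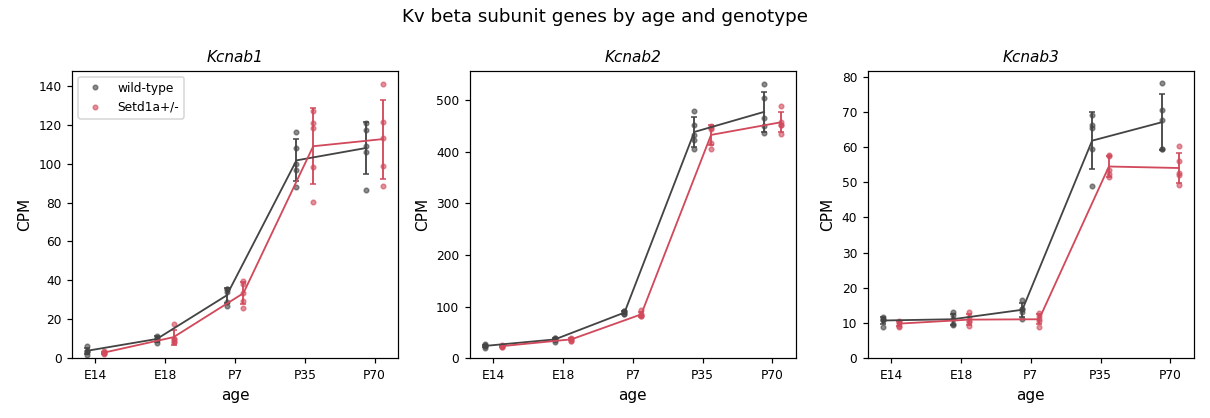
CPM of the 3 Kv beta subunit genes at 5 ages in wild-type (grey) and Setd1a+/- (red) cortex, with each library as a point and the mean and SD of 5 libraries joined by lines. Kcnab3 in Het has the lower mean at each age, ending at 49.2 to 60.2 against 59.4 to 78.2 CPM at P70, and the libraries of the genotypes overlap for all 3 genes.

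No other of the 81 was called. Those with small p included the silent subunit genes Kcns3 (log2 fold change 0.22, adjusted p = 0.152), Kcng2 (-0.18, adjusted p = 0.23) and Kcng1 (0.13, adjusted p = 0.287). The standard error of the genotype log2 fold change had a median of 0.07 over the 81 genes, and the middle 50% of their fold changes lay between -0.03 and 0.06.

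At single ages, 0 of the 81 genes were called by edgeR at E14, E18, P7, P35 or P70, against 0.129%, 0.11%, 0.735%, 0% and 0.233% of all genes. By unadjusted p under 0.05 the numbers were 7, 10, 2, 1 and 1, or 8.64%, 12.3%, 2.47%, 1.23% and 1.23% of the 81, beside 11.6%, 11.4%, 8.86%, 3.37% and 6.55% of all genes. Limma-voom called 0 at each age. DESeq2 called Kcng4 at E14 (against 0.699% of all genes), and Kcns3 (log2 fold change 0.66) and Kcne2 (-3.79) at E18 (against 0.68% of all genes), the latter with the choroid plexus markers high in WT replicates 3 and 4. Kcng4 at E14 held 0.708 CPM in Het replicate 2, between 0 and 0.126 CPM in the other Het libraries and between 0 and 0.0504 CPM in WT. The count at E14 depended on libraries. Without WT replicate 5, 1 of the libraries with Xist counts, 3 of the 81 were called, against 4.55% of all genes. Among the 3, Kcnh6 and Kcns2 were lower in Het (log2 fold changes -0.55 and -0.66). That WT library held the lowest interneuron marker sum of its group, 271 CPM against 369 to 571 CPM. Its progenitor sum was the highest, 1340 CPM against 936 to 1218 CPM, as was its endothelial sum, 126.2 CPM against 85.2 to 102.5 CPM. The part of these cells in the calls was not tested. Without Het replicate 1, 3 or 5, Kcnj8 was higher in Het, together with Kcnk6 or Kcng4 in 2 of these cases, where 2.61%, 2.38% and 0.908% of all genes were called. Kcnk6 held 2.96 CPM in Het replicate 2 at E14 against 0.977 to 1.77 CPM in the other Het libraries. Without that replicate in place of the others, the E14 log2 fold changes were 0.21 for Kcnj8, 0.295 for Kcnk6 and 1.19 for Kcng4, and none was called. Without both libraries with Xist counts and WT replicate 2 at P7, 8 genes were called at E14, where 7.11% of all genes were. Of the 8, 7 were lower in Het, among these Kcnh2, Kcnh4, Kcnh6 and Kcns2. Kcnh4 was higher at E18 (log2 fold change 0.52) and called for the interaction, where 1.17% and 0.293% of all genes were called.

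The sign of the genotype difference leaned opposite ways at the embryonic ages, in these genes and over all genes alike. At E14, 58 of the 81 log2 fold changes (71.6%) were negative, with a median of -0.08. Of all genes, 61.3% were negative, with a median of -0.03. At E18, 58 of the 81 (71.6%) were positive, with a median of 0.12. Of all genes, 55.7% were positive, with a median of 0.02. Cell markers also differed between libraries. At E14, WT replicate 5 and Het replicate 2 stood apart from their groups in the marker sums given above. The E18 libraries differed as well. The 4 endothelial markers summed to 131.15 to 310 CPM in WT and 107.1 to 148.6 CPM in Het, and the 5 choroid plexus markers to 234 and 195.7 CPM in WT replicates 3 and 4, at most 15.5 CPM in the other WT libraries and at most 8.88 CPM in Het. Emx1, Tbr1 and Bcl11b summed to 604 CPM in WT replicate 4 against 714 to 820 CPM in the other WT libraries. The part of these cells in the result was not tested. Kcnh4 held 42.1, 32.2, 29.0, 29.3 and 16.2 CPM in WT and 30.2, 20.4, 24.8, 27.04 and 22.9 CPM in Het at E14. At E18 it held 52.6, 46.9, 53.9, 32.9 and 51.2 CPM in WT and 60.0, 78.3, 74.2, 66.1 and 63.3 CPM in Het. The groups overlapped at E14 and did not at E18, yet its E18 difference was not called (log2 fold change 0.53, adjusted p = 0.133).

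The WT and Het libraries did not overlap at E18 for 5 of the 81 genes, each higher in Het (1.26% of all genes, with 0.955% lower): Kcna6, Kcnd1, Kcnh4, Kcnk3, the acid-sensitive leak channel TASK1, and Kcns3. At P70, Kcnh3 did not overlap and was lower in Het (1.26% of all genes, with 0.539% higher). At the other ages 0 of the 81 separated, where 0.178% of all genes were higher and 0.606% lower at E14, 0.612% and 1.62% at P7, and 0.925% and 1.32% at P35.

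Genes of proteins that work with these channels were counted in the same fits. Over E14 to P70 in WT, 42.8% of all tested genes rose and 42.9% fell. Of 21 listed auxiliary or anchoring genes, 20 were tested, and 16 rose and 3 fell. Lgi3, a secreted partner of the Kv1 complex, rose by 7.38 on the log2 scale, and Dpp10, a Kv4 auxiliary subunit, by 3.65, whereas Cntn2, an axonal adhesion gene that anchors Kv1 channels, fell by 2.49. The sulfonylurea receptor genes Abcc8 and Abcc9, partners of the ATP-sensitive channels, fell by 0.92 and 0.94. All 6 sodium-potassium pump genes listed rose, with a median log2 fold change of 3.25. The cyclic nucleotide-gated cation channel genes went both ways: Hcn2 rose by 4.55 on the log2 scale, and Hcn3 and Hcn4 fell by 1.12 and 2.40. By genotype with age held constant, edgeR called none of these partner genes, where 3.75% of all genes were lower and 0.68% higher. The smallest adjusted p was 0.162, for the pump subunit gene Atp1b2 (log2 fold change -0.13).

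Of the 13 Kcn genes outside the rule, Kcnmb1 came nearest, with 1 CPM in 2 libraries and a highest value of 1.21 CPM, and Kcnk15 reached it in 1. Just inside were Kcnn4, the intermediate-conductance channel gene, in 6 libraries, Kcne2 in 10 and Kcnj13 in 15. The other 11 outside it were Kcna7, Kcna10, Kcne1, Kcne3, Kcnj1, Kcnj15, Kcnk7, Kcnk16, Kcnk18, Kcnmb3 and Kcnv2. Of the 81, 59 held 1 CPM in all 50 libraries.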

How the data were processed

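RNA was measured in 50 frontal cortex libraries, 5 for each of 10 groups of age and genotype taken from the sample titles. The deposited files hold raw counts per gene: per the labels and file headers, the authors trimmed reads with Trimmomatic, checked them with FastQC, aligned them to GRCm38 with STAR and counted genes with featureCounts 1.4.6-p2 on Ensembl annotation release 102. The counting command in the headers set no strand and counted reads that overlap several genes for each of them.

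Gene IDs were matched to GENCODE vM21 for symbols, types, lengths and coordinates (55141 of 55487 matched). Protein-coding genes were filtered with edgeR 4.0.16 (filterByExpr, minimum count 10) and scaled by TMM, leaving 16330. The main test was edgeR's quasi-likelihood test on the counts with Benjamini-Hochberg adjustment over all tested genes, and a call is an adjusted p under 0.05. Genotype was fitted with age as a covariate, the interaction with 4 terms, and ages and genotypes within ages as contrasts of the 10 groups. CPM are TMM-scaled, except in the 1 CPM rule, which used library totals. RPKM is CPM per kilobase of exonic length. SE is the log2 fold change over the square root of its F statistic. R 4.3.3, limma 3.58.1, DESeq2 1.42.0 and Python 3.11.15 were used.

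The methods give 5 animals per genotype and age, littermates after birth. Litter is not given in the sample titles and was in no fit, so p-values measure the spread between animals without allowing for litter. The members and lists were chosen with earlier results of these data known. Named genes were those called by genotype, the next by p to a total of 5, the 8 largest rises and 8 largest falls from E14 to P70 shared by both genotypes, the 3 largest each way at each interval, the highest of each subfamily per length, the 3 smallest interaction p, genes listed by function and those at the edges of the rule; others are named where a count is 15 or fewer or where they contrast with a relative, after their values were seen. In simulated data with 200 changed genes, 72% of log2 changes of 0.3 and 98% of those of 1 were recovered in the genotype test over 16268 genes. Alternatives were limma-voom, DESeq2, its size factors, library totals alone, a 10 CPM filter, no filter, a 0.01 threshold, RNA integrity as a covariate, a replicate block, each library left out and, chosen after seeing the data, leaving out the 2 libraries with Xist counts, these and WT replicate 2 at P7, and fitting all annotated genes. Promoter windows came from RefSeq on GRCm38.p6. Some genes under these rules are not reported here.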

Additional observations from a re-analysis of the deposited data

Results flagged for a closer look

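Within groups of 5 libraries, 19 of 180 groups examined over 18 genes held a library whose gap to its nearest neighbour exceeded 0.71 of the group's range, where chance gives about 1 in 20. WT replicate 2 at P7 accounted for 5 of these. It was the highest of its group for Kcne2 (3.34 CPM, gap 0.899). It was the lowest for Kcnj4 (24.3 CPM, gap 0.828), Kcnk4 (13.5 CPM, gap 0.811), Kcnh4 (14.1 CPM, gap 0.787) and Kcnq5 (46.0 CPM, gap 0.835).

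At E14, Kcnab3 was low in WT replicate 5 (gap 0.753), Kcnk4 was low in WT replicate 3 (gap 0.745) and Kcnq5 was high in Het replicate 2 (gap 0.713). At E18, Kcnab1 and Kcne2 were high in Het replicate 4 (gaps 0.734 and 0.714) and Kcnh4 was low in WT replicate 4 (gap 0.719). That Het library also held the highest striatal marker sum of its group, 213.1 CPM over Drd1, Drd2, Adora2a and Ppp1r1b against 106.04 to 139.1 CPM. Its sum over Pvalb, Tac1 and Syt2 was the highest too, 37 CPM against 13.5 to 21.3 CPM. Pvalb was at only 0.0239 CPM there, so that sum came from Tac1 and Syt2 and does not by itself show fast-spiking cells. Over the E18 Het libraries, the SD was 9.19 CPM for Tac1 and 1.44 CPM for Syt2. The part of striatal or other cells in these E18 values was not tested. At P35, Kcnj9 was high in Het replicate 1 (gap 0.833), Kcnk5 was low in WT replicate 1 (gap 0.926) and Kcns3 was low in WT replicate 4 (gap 0.741). At P70, Kcnj16 was high in WT replicate 4 (gap 0.713), Kcnk4 was high in WT replicate 3 (gap 0.845) and low in Het replicate 5 (gap 0.894), Kcnk10 was high in WT replicate 1 (gap 0.843) and Kcnj8 was low in Het replicate 3 (gap 0.836). WT replicate 3 at P70 also held the lowest sum of those 4 striatal markers in its group, 192.9 CPM against 468.6 to 683 CPM, while Het replicate 3 held the highest, 750 CPM against 299.7 to 593 CPM, and the highest choroid plexus marker sum, 41.1 CPM against 5.75 to 10.3 CPM. Het replicate 1 at P35 held the lowest sums of its group over the striatal markers (286 CPM against 384.7 to 687 CPM), over Mbp, Mog, Mag and Cnp (2513 CPM against 2992 to 3412 CPM) and over Pvalb, Tac1 and Syt2 (103.5 CPM against 118.1 to 150.95 CPM). Pvalb alone was at 28.1 CPM there, inside the 26.1 to 33.4 CPM of the other Het libraries at P35. The part of these cells in the values above was not tested.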

How the results depend on the processing

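Leaving out 1 library at a time kept 1095 of 1100 counts of called genes within 1.5 times of the reported count. The exceptions were genotype at E14, which ranged from 0 to 3, and the fall from P35 to P70, which ranged from 0 to 1. DESeq2 called 1 gene for the interaction, 1 at E14 and 2 at E18. A filter of 10 CPM in 5 libraries, which tests 61 of the 81 genes, lowered the number that fell to 3 from E18 to P7, 7 from P7 to P35, 4 from E14 to P70 in each genotype and 2 with at least 2-fold required. The shares of all genes that fell under that filter were 37.9%, 37.6%, 46.4% in WT, 46.3% in Het and 19.5%. Without the 2 libraries with Xist counts, 3 of the 81 were called at E14, against 4.85% of all genes. Without these and WT replicate 2 at P7, 8 were called at E14, 1 at E18 and 1 for the interaction. The cause of these shifts was not tested. With RNA integrity as a covariate, the fall of Kcne2 was -2.84 (adjusted p = 0.0565). Scaling by library totals alone moved the median of all genes from E14 to P70 to -0.11 and that of the 81 genes to 2.42. Same-numbered WT and Het libraries correlated between -0.20 and 0.46 in their deviations and were not taken as pairs. Their mean correlation was above that of other WT and Het libraries at each age, from 0.130 against -0.0311 at E14 to 0.0220 against -0.00559 at P7. With a replicate block, the log2 fold change of Kcnab3 was -0.19 (adjusted p = 0.0198). Depth limits genes near 1 CPM. In simulated data for P35 to P70, 27% of log2 changes of 0.3 and 85% of those of 1 were recovered over 16265 genes.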
